A study of Homo sapiens with 15 samples.

Results

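Wild-type cytidine deaminase (CDA) was compared with its E67Q form, gene by gene and pool by pool, in Mia PACA-2, a human cell line from a pancreatic carcinoma. The comparison used 10 of 15 libraries of polyadenylated RNA: 5 from cells overexpressing CDA (CDA_WT) and 5 from cells overexpressing the E67Q form (CDA_E67Q), each numbered by pool from 1 to 5. The 5 control libraries of the same line carry the same pool numbers and were used to match the tables and to show where the control stands. The genes described are those whose CDA_WT library was above, or below, the CDA_E67Q library of the same number in all 5 pairs, which held for 501 of 11362 genes tested. The labels list no drug treatment for any group, and they do not say what a pool is, how the transgenes were introduced, or whether the pools were separate cultures. The p-values are therefore set by how far these libraries vary, and that variation may be technical.

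CDA belongs to the pyrimidine salvage pathway: it hydrolyses cytidine and deoxycytidine to uridine and deoxyuridine, and it inactivates cytidine analogue drugs such as gemcitabine, which is used against pancreatic cancer. The enzyme works through a zinc-bound water molecule, and the glutamate at residue 67 shuttles protons to and from it. In the E67Q form this glutamate is replaced by glutamine, so the protein lacks the catalytic side chain, and a difference between the forms addresses what depends on that side chain.

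The changed codon is shown in the reference transcript because it is the only designed difference between the groups. The line gives codons 59 to 75 of the 146 codons of CDA, 5′ to 3′, from the GENCODE transcript on GRCh38, with codon 67 in capitals.
CDA codons 59 to 75: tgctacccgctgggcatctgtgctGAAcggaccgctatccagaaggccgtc
Codon 67, GAA for glutamate, lies at chr1:20604972-20604974 on the plus strand, in exon 2 of 4. The deposited values are gene totals, so transcripts of the wild-type and E67Q forms, or of a transgene and the cell's own CDA, cannot be told apart.

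The libraries held an estimated 21.4 to 31.0 M reads and detected 12508 to 13090 genes each. The deposited values limit precision by their number and give no counting interval. Vimentin (VIM, 114788 to 304452 normalised counts), the keratins KRT8 and KRT18, and ZEB1 were present in all 15 libraries. The epithelial genes CDH1 and EPCAM had a median of 0, while ESRP1, also planned as an epithelial marker, had a median of 8.97 and reached 47.7. Of 11 markers of leukocytes, endothelium, fibroblasts and acinar cells, 6 could be placed on the scale, and their summed level ran from 384 to 1599 in the control, 346 to 1489 in CDA_WT and 439 to 1791 in CDA_E67Q. CD68, a lysosomal protein that other cells also make, made up most of that sum and was the single one of the 11 to pass the filter on low values. CD3E, PECAM1 and PTPRC had medians of 0, and PTPRC reached 10.5. PDGFRB and VWF had medians of 3.53 and 2.94, and each reached 26.9. Of the 6 markers, 5 lay below 10 in every control library, 4 in every CDA_WT library and 2 in every CDA_E67Q library. The collagen genes COL1A1 and COL1A2, also planned as fibroblast markers, were not among the 11. COL1A2 was high in all libraries, from 6919 to 41253, and COL1A1 ran from 7.09 to 193. The pair of pool 2 stood apart: the standard deviation (SD) over genes of its CDA_WT minus CDA_E67Q difference was 0.91 log2, against 0.36 to 0.48 in the other 4 pools. Where leaving out pool 2, or another single pool, moved a difference printed here by over 1.5 times, the value without that pool, or the pair of that pool, is given beside it.

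The CDA transcript was abundant in both overexpressing groups, and the 2 forms overlapped. In pools 1 to 5 the normalised count of CDA was 16.6, 248, 309, 9.84 and 76.3 in the control. It was 1132, 5167, 2187, 769 and 1416 with CDA_WT, and 1346, 1728, 5421, 1659 and 2460 with CDA_E67Q. Every overexpressing library exceeded every control library, and in 4 of 5 pairs the CDA_E67Q library held more CDA transcript than its CDA_WT partner, with pool 2 the exception. The group levels were 2134 ± 1774 with CDA_WT and 2523 ± 1671 with CDA_E67Q (SD, n = 5 each). On the log2(normalised count + 1) scale, used for every difference here, CDA_WT minus CDA_E67Q was -0.38 (standard error, SE, 0.38, 95% interval -1.25 to 0.50; exact paired permutation p = 0.5625, 2-sided). With 5 pairs this test cannot go below 0.0625. The within-pair differences were -0.25, 1.58, -1.31, -1.11 and -0.80. Their mean was -0.87 without pool 2, -0.14 without pool 3 and -0.19 without pool 4. The amount of CDA transcript thus differed within pairs, and its part in the differences of other genes was not tested.

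**Figure D1:**
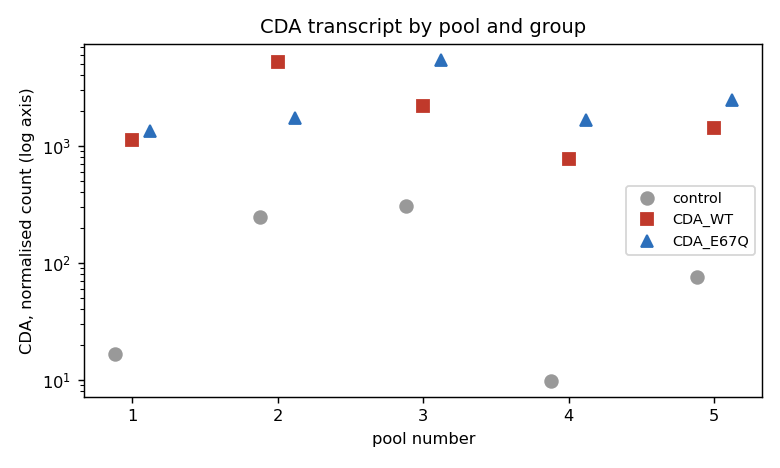
Normalised count of the CDA transcript (log axis) in each library, by pool number, for the control (grey circles), CDA_WT (red squares) and CDA_E67Q (blue triangles). All 10 overexpressing libraries lie above all 5 controls, and CDA_WT lies above CDA_E67Q in pool 2 alone.

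No gene passed the test between the forms. By limma with pool number as a block, 0 of 11362 genes (0%) had a Benjamini-Hochberg adjusted p under 0.05, and the smallest adjusted p was 0.9997. An unadjusted p under 0.05 was found for 180 genes (1.58%), 86 higher and 94 lower with CDA_WT. No tool other than limma was run across genes, since count models need counts and the deposited values are not counts. The 501 genes with 1 sign in all 5 pairs made up 4.41% of those tested: 302 (2.66%) were higher and 199 (1.75%) lower with CDA_WT. These counts are the background against which every list below is read. They include only genes that passed the filter on low values, and a gene can pass through the group in which it is high. With no such filter 562 genes had 1 sign. If signs were random, 1 sign over 5 pairs would be found for a share of 0.0625 of genes. The 4.41% found lies below that share, so 1 sign does not by itself show a difference between the forms. The genes named below for wide or steady differences were chosen by the same pairs. Their unadjusted p-values and intervals are therefore descriptions.

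The differences of these genes were mostly small. The median was 0.24 log2 for the 302 higher genes and -0.24 for the 199 lower ones, and the smallest of the 5 pair differences had medians of 0.043 and 0.046 in size. Every pair differed by over 0.1 log2 in 67 higher and 49 lower genes, by over 0.25 in 8 and 11, and by over 0.5 in 0 and 3. Those 3 were CREB3L3, BHLHE41 and CDS1, a phospholipid synthesis gene of low level (0 to 33.4 normalised counts), named after its values were seen, with a difference of -1.53 (SE 0.54). In bulk RNA of this kind, fewer cells expressing a gene and less RNA per cell cannot be told apart.

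The levels of the 2 groups did not overlap for 5 genes (0.0440% of those tested), which are named for that reason, after their values were seen. GTDC1, which encodes a protein with a glycosyltransferase-like domain, ran from 292 to 323 with CDA_WT and from 177 to 279 with CDA_E67Q. NSUN3, a methyltransferase acting on a mitochondrial transfer RNA, ran from 172.4 to 259 and from 150 to 172.0. SESTD1 ran from 17.9 to 55.4 and from 11 to 15.6. In these 3 every CDA_WT library was the higher, with differences of 0.38 (SE 0.16), 0.36 (SE 0.16) and 0.85 (SE 0.37). In the splicing helicase gene DHX8 and the mitochondrial sirtuin gene SIRT4 every CDA_WT library was the lower, with differences of -0.25 (SE 0.12) and -0.42 (SE 0.23), or -0.15 and -0.27 without pool 2. Unadjusted p-values by limma ran from 0.044 to 0.0969 over the 5 genes.

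Among the genes lower with wild-type CDA, the widest difference belonged to CREB3L3 (chromosome 19, 4153601 to 4173054, plus strand), which encodes a membrane-bound transcription factor of the endoplasmic reticulum that is best known from liver. Its normalised count in pools 1 to 5 was 6.71, 0, 136, 1.10 and 557 with CDA_WT. It was 20.9, 16.9, 337, 20.4 and 1080 with CDA_E67Q, and 3.17, 3.6, 18.7, 0 and 791 in the control. Each CDA_E67Q library was the highest of its pool, while the level itself differed widely between pools. CDA_WT minus CDA_E67Q was -2.25 (SE 0.51, 95% interval -3.43 to -1.08, unadjusted p = 0.00223 by limma) and -1.78 without pool 2. Values near 0 make this fold depend on the added count of 1.

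AKNA (chromosome 9, 114334156 to 114394405, minus strand), encodes a centrosomal organiser of microtubules first described as an AT-hook protein. It stood at 107, 165, 257, 95.8 and 334 with CDA_WT and at 146, 277, 567, 345 and 727 with CDA_E67Q. The difference was -1.06 (SE 0.21, unadjusted p = 0.00102 by limma), with pairs from -0.45 in pool 1 to -1.84 in pool 4, and it was -1.14 without pool 2. The controls, at 546, 161, 134, 92.0 and 278, lay above both forms in pool 1 and below CDA_E67Q in the others.

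KLHL24 (chromosome 3, 183635568 to 183684477, plus strand), a substrate adaptor of a cullin ubiquitin ligase, had the smallest unadjusted p of the genes named. The gene was named for its steady pairs, so that p comes from the differences that chose it. Its adjusted p by limma was 0.9997. KLHL24 stood at 508, 503, 803, 247 and 2501 with CDA_WT and at 803, 826, 1347, 411 and 3460 with CDA_E67Q. The level in pool 5 was several-fold that of the other pools in all groups, yet the 5 pair differences were -0.66, -0.72, -0.75, -0.74 and -0.47. Their mean was -0.66 (SE 0.11, unadjusted p = 0.000246 by limma), a 1.58-fold lower level, and -0.65 without pool 2. It kept 1 sign in all 5 pairs under upper-quartile scaling, equal totals, the deposited values and a correction for length and GC content.

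PLPP3, a phosphatase that degrades lysophosphatidic acid, stood at 102, 23.2, 64.5, 9.72 and 303 with CDA_WT and at 149, 79.0, 165, 21.1 and 413 with CDA_E67Q. BHLHE41, a transcriptional repressor of the circadian clock, stood at 451, 111, 203, 371 and 388 against 747, 464, 352, 559 and 620. Their differences were -1.02 (SE 0.25) and -0.97 (SE 0.23), and without pool 2 -0.84 and -0.69. BHLHE41 differed from PLPP3 in its controls: the 5 control libraries, at 466, 614, 281, 428 and 625, all lay above their CDA_WT partners. PLPP3 controls lay on either side of CDA_WT, from 14.9 to 311. The axon guidance gene NTNG2, a membrane-anchored netrin, had a difference of -0.87 (SE 0.21), with pairs from -0.39 to -1.40.

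CDH3, which encodes P-cadherin, a cell adhesion protein, was low in all libraries and fell outside the minimum level set for the widest differences. It stood at 4.82, 1.89, 10.9, 8.84 and 32 with CDA_WT and at 42.0, 6.73, 28.7, 33.6 and 32.7 with CDA_E67Q. The difference was -1.49 (SE 0.47), carried by pools 1 to 4, since the pair of pool 5 differed by -0.03. Several other lower genes owed most of their size to pool 2. The calmodulin-dependent kinase gene CAMK2D had a difference of -1.04 with all pools and -0.39 without pool 2. For GJB2, which encodes the gap junction protein connexin 26, these values were -0.91 and -0.35. The adaptor gene ANK2 had -0.89 and -0.48, the secreted protease inhibitor gene SERPINA3 -0.89 and -0.46, and the synaptic gene CPLX1 -0.83 and -0.37. SLC37A2, a sugar phosphate exchanger, stood at -0.92 and -0.84, and ARC, an activity-regulated gene of neurons, at -0.81 and -1.0.

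**Figure D2:**
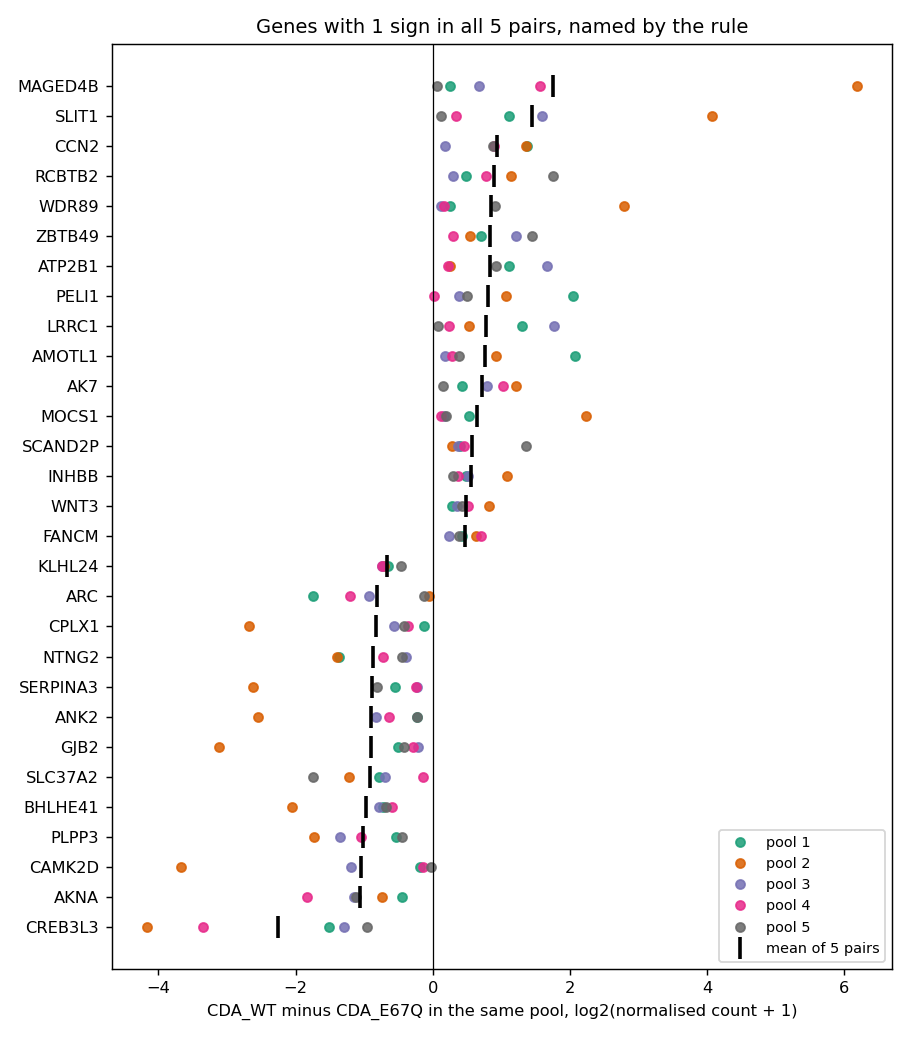
CDA_WT minus CDA_E67Q in each pool (coloured points, log2(normalised count + 1)) and the mean of the 5 pairs (black bars) for the genes with the widest or steadiest differences among those of 1 sign and a mean level of at least 50. Pool 2 is the farthest point for MAGED4B at 6.18, SLIT1 at 4.07 and CREB3L3 at -4.16, while the 5 points of KLHL24 lie between -0.47 and -0.75.

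Among the genes higher with wild-type CDA, CCN2 (chromosome 6, 131948176 to 131951373, minus strand) encodes a secreted matrix-associated protein, also called CTGF, and is a standard target of the YAP and TEAD transcription factors. It stood at 7.03, 755, 140, 186 and 447 with CDA_WT in pools 1 to 5. It stood at 2.09, 294, 124, 99.4 and 243 with CDA_E67Q, and at 1.11, 64.1, 28.4, 3.40 and 268 in the control. CDA_WT was the highest library of each pool, by a narrow margin over CDA_E67Q in pool 3, and the levels of the groups overlapped across pools. The difference was 0.94 (SE 0.23, 95% interval 0.42 to 1.46, unadjusted p = 0.00323 by limma), with pairs of 1.38, 1.35, 0.18, 0.90 and 0.88, and it was 0.83 without pool 2. Against the control, CDA_WT stood 2.78 log2 higher and CDA_E67Q 1.84 higher on average. On the deposited values, which compress low levels, CCN2 and SLIT1 did not keep 1 sign in all 5 pairs.

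The CCN2 promoter is shown because it carries 3 copies of the TEAD motif within a short stretch. The line gives 110 bases of the RefSeq promoter at chr6:131951447-131951556 on the minus strand of GRCh38.p14, read 5′ to 3′ along the gene, with the motif GGAATG in capitals.
CCN2 promoter: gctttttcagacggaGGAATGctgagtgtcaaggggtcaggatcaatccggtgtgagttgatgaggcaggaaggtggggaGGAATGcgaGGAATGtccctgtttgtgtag
GGAATG was searched on both strands in the 250 bases before the start, and a match in any promoter of a gene counted. It was present in 14.3% of the 27305 genes with a promoter sequence and in 13.1% of the 9157 of these that were tested. A match of letters is a description and does not show that a factor binds. The motif was present in 12.5% of the 257 higher genes and 14.5% of the 152 lower genes with a promoter sequence, so its share was near the background in both. The E-box CACGTG was searched as well. It was present in 11.4% of the tested genes, 8.17% of the higher genes and 13.2% of the lower genes. CCN1, the other CCN gene of the same list, was named after its values were seen: its pair differences were 0.40, 1.33, 0.33, -0.10 and 0.21.

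SLIT1 (chromosome 10, 96998038 to 97185920, minus strand), a secreted ligand of the ROBO guidance receptors, stood at 57.8, 105, 39.0, 25.8 and 122 with CDA_WT. It stood at 26.2, 5.32, 12.2, 20.2 and 113 with CDA_E67Q, and at 40.5, 33.9, 7.47, 21.5 and 99.8 in the control. CDA_WT was again the highest library of each pool, with the pairs of pools 4 and 5 differing little. The difference was 1.45 (SE 0.56) with all pools and 0.79 without pool 2. FANCM, a DNA translocase of the Fanconi anaemia pathway, was among the steadiest higher genes, at 235, 419, 239, 400 and 166 with CDA_WT against 175, 270, 202, 245 and 127. Its difference was 0.48 (SE 0.14), with pairs from 0.24 to 0.71, and it was 0.44 without pool 2.

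**Figure D3:**
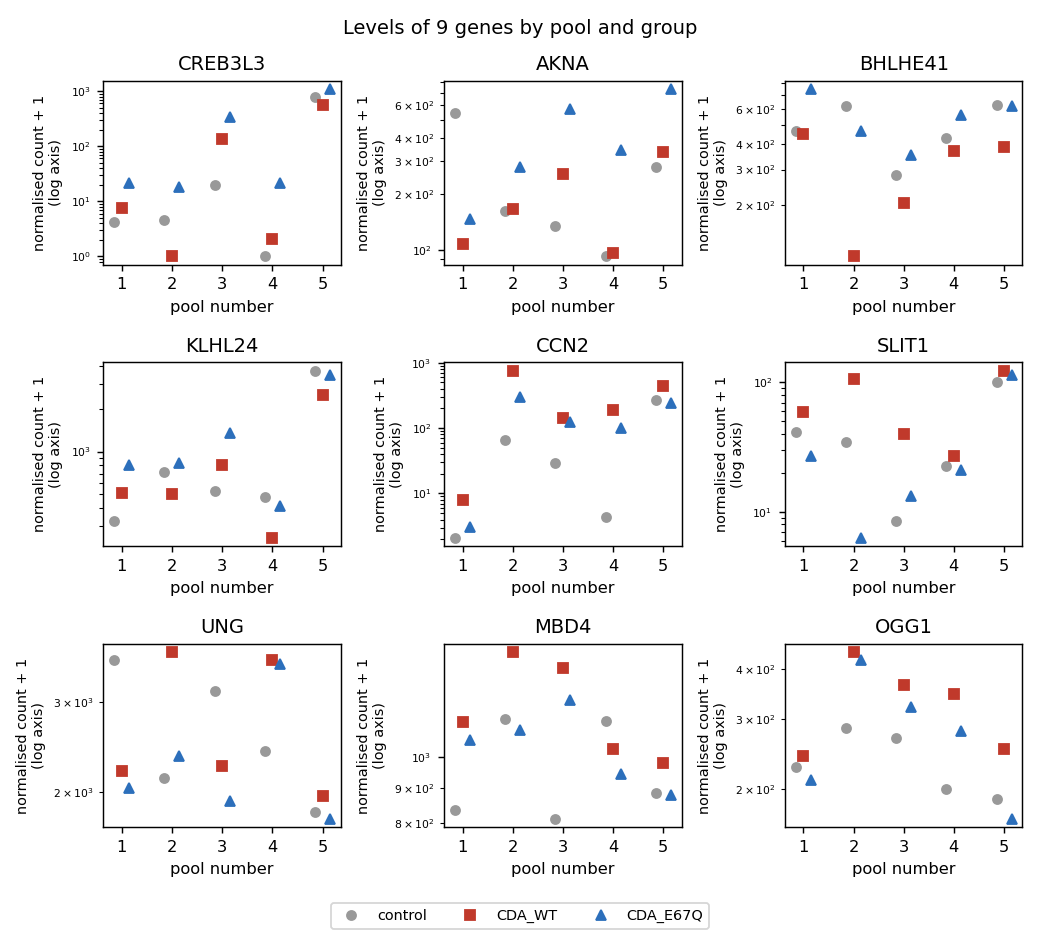
Normalised count plus 1 (log axes with their own range) of 9 genes in each library by pool number, for the control (grey circles), CDA_WT (red squares) and CDA_E67Q (blue triangles). In each panel the red and blue symbols keep 1 order in all 5 pools, while the level differs between pools, for CREB3L3 from 0 to 1080 normalised counts.

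Other higher genes, named by size or, for WNT3, INHBB and SCAND2P, by steadiness, included signalling and membrane genes. RCBTB2 differed by 0.89 (SE 0.28), the plasma membrane calcium pump gene ATP2B1 by 0.83 (SE 0.24) and the zinc finger gene ZBTB49 by 0.84 (SE 0.25). PELI1, a ubiquitin ligase of Toll-like receptor signalling, differed by 0.81 (SE 0.31), or 0.50 without pool 1, and the scaffold gene LRRC1 by 0.78 (SE 0.32). AMOTL1, an angiomotin that binds YAP, differed by 0.77 (SE 0.27), of which pool 1 gave 2.08 and the other pools 0.18 to 0.92, and by 0.44 without pool 1. The adenylate kinase gene AK7 differed by 0.72 (SE 0.25), and WNT3 and INHBB, which encode secreted ligands, by 0.48 (SE 0.18) and 0.55 (SE 0.23). The expressed pseudogene SCAND2P differed by 0.57 (SE 0.26), or 0.37 without pool 5. WDR89 and the molybdenum cofactor gene MOCS1 differed by 0.85 and 0.65 with all pools, but by 0.36 and 0.25 without pool 2. MAGED4B had the widest difference, 1.75 (SE 0.83), and it is uncertain because this gene has a near-identical copy, MAGED4, between which reads may be split. Pool 2 alone gave 6.18, and the value without it was 0.64.

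Membership turns on the pair nearest to 0. PELI1 lay just inside, with its pair of pool 4 at 0.024. FSTL1 and PMAIP1, named after their values were seen, lay just outside, since their pairs of pool 4 were -0.03 and -0.14 while their means were 1.05 and 1.22. PMAIP1, which encodes the pro-apoptotic protein NOXA, stood at 98.8, 1956, 1920, 350 and 305 with CDA_WT and at 23.6, 555, 426, 385 and 259 with CDA_E67Q.

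Over all genes tested, the control mean lay between the means of the 2 forms for 28.1%, beyond CDA_E67Q for 29.5% and beyond CDA_WT for 42.4%. It lay between the forms for 173 of the 302 higher genes (57.3%) and 104 of the 199 lower genes (52.3%). It lay beyond CDA_E67Q for 60 (19.9%) and 33 (16.6%), and beyond CDA_WT for 69 (22.8%) and 62 (31.2%). These genes were chosen for a difference between the forms, so nothing is read from the larger share in between. Few genes had 1 group as the highest, or as the lowest, library of every pool. CDA_WT was the highest of its pool throughout in 24 genes (0.211%) and the lowest in 12 (0.106%). CDA_E67Q was the highest in 18 (0.158%) and the lowest in 33 (0.290%), and the control was the highest in 30 (0.264%) and the lowest in 34 (0.299%). The counts for CDA_WT lay below those for the control in both directions.

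The 24 genes with CDA_WT on top included CCN2, SLIT1, OGG1, GPR160, TDRD7 and XPNPEP3, the 6 farthest from the other groups at a mean level of at least 50. The orphan receptor gene GPR160 ran from 117 to 236 with CDA_WT, from 65.1 to 181 with CDA_E67Q and from 53 to 175 in the control. TDRD7, a tudor-domain protein of RNA granules, differed from CDA_E67Q by 0.42 (SE 0.18) and from the control by 0.38. XPNPEP3, a mitochondrial aminopeptidase, stood at 814, 1155, 759, 935 and 851 against 695, 584, 674, 745 and 776. In these 3 genes the groups overlapped across pools but not within any pool.

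The 12 genes with CDA_WT at the bottom included BHLHE41, ZFP14, AOPEP, PIGL, WDR19 and FAM122C by the same rule. AOPEP, an aminopeptidase, differed from CDA_E67Q by -0.62 (SE 0.19) and from the control by -0.48. The glycosylphosphatidylinositol anchor gene PIGL differed by -0.56 (SE 0.17) and -0.31, and the ciliary transport gene WDR19 by -0.39 (SE 0.13) and -0.47. The zinc finger gene ZFP14 differed by -0.65 (SE 0.29) and -0.99. FAM122C had the smallest difference from CDA_E67Q of the 6, -0.26 (SE 0.21), or -0.15 without pool 1, and that from the control was -0.53.

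The pathway of the enzyme itself held no gene of 1 sign. In pyrimidine salvage and breakdown, which includes the kinases and nucleotidases around CDA, 0 of 26 tested genes had 1 sign in all 5 pairs, and the median difference was 0.0072 (0.046 without pool 2), beside -0.00056 over all 11362 genes (0.0064 without pool 2). The 2 members with the smallest p were the nucleotidase genes ENTPD5, with pairs of 0.25, 1.01, -0.11, 0.20 and 0.22, and NT5M, with pairs of -0.49, -0.66, 0.30, -0.35 and -0.17. De novo pyrimidine synthesis and deoxynucleotide supply also held 0 of 16, with a median of 0.032. CAD, which starts pyrimidine synthesis, stood at 5193, 6283, 5745, 6247 and 5650 with CDA_WT and at 5393, 9431, 7053, 6170 and 6258 with CDA_E67Q. SAMHD1, which degrades deoxynucleotides, differed by 0.37 (SE 0.20), with 2 pairs below 0 and the pair of pool 2 at 1.28, and by 0.14 without pool 2.

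Transport and the other deaminases gave the same count. Nucleoside transport and drug efflux held 0 of 11 genes of 1 sign, with a median of -0.060. The efflux pump gene ABCC3 differed by -0.49 (SE 0.21), with pool 4 the other way, and ABCC10 by -0.28 (SE 0.20), of which pool 2 gave -1.17, and by -0.06 without it. Cytidine and adenosine deaminases other than CDA held 0 of 14, with a median of -0.055 and 4 of 14 means above 0, and without pool 2 a median of 0.017 and 8 of 14. The RNA editing gene ADARB1 differed by -0.11 (SE 0.10), or -0.044 without pool 4. The AMP deaminase gene AMPD3 differed by -0.14 (SE 0.16), or -0.070 without pool 4 and -0.22 without pool 3. Purine synthesis held 1 of 18, ADSL, which differed by 0.09 (SE 0.09).

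Uracil in DNA is removed by glycosylases that start base excision repair, and this list held 3 of 19 genes of 1 sign, all higher with CDA_WT and none lower. UNG, the main uracil glycosylase (chromosome 12, 109097574 to 109110992, plus strand), stood at 2194, 3754, 2252, 3628 and 1965 with CDA_WT and at 2035, 2353, 1919, 3550 and 1771 with CDA_E67Q. MBD4, a glycosylase for mispaired thymine and uracil (chromosome 3, 129430944 to 129440179, minus strand), stood at 1128, 1432, 1356, 1030 and 980 against 1062, 1095, 1216, 943 and 879. OGG1, the 8-oxoguanine glycosylase (chromosome 3, 9749944 to 9788219, plus strand), stood at 241, 439, 363, 344 and 251 against 210, 419, 320, 279 and 168. The order held in each pair, but the ranges of the 2 forms overlapped in all 3 genes.

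Their differences were 0.24 (SE 0.12), 0.18 (SE 0.10) and 0.27 (SE 0.14), and none passed the test (unadjusted p = 0.0793, 0.113 and 0.0907 by limma). MBD4 kept 1 sign under the 4 other scalings and corrections tried, UNG lost it with equal totals and with the length and GC correction, and OGG1 lost it on the deposited values. Without pool 2 they were 0.13, 0.13 and 0.32. Over the whole list 10 of 19 means were above 0 and the median was 0.021. Without pool 2, 17 of 19 means were above 0 and the median was 0.095, and within pools the list median was 0.094, -0.20, 0.034, 0.13 and 0.15. The control stood above both forms for UNG in pools 1 and 3, at 3625 and 3154. For OGG1 it lay below CDA_WT in all pools, from 188 to 284.

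Genes of replication and its stress response had 1 sign about as often as all genes tested. DNA replication held 2 of 48, both higher: RFC1, the large subunit of a clamp loader, differed by 0.21 (SE 0.09), and ORC2, of the origin recognition complex, by 0.12 (SE 0.10). The list median was 0.081, with 35 of 48 means above 0, and the pool medians ran from -0.069 in pool 5 to 0.24 in pool 1. The replication stress response held 2 of 39, FANCM and the translesion synthesis gene REV1, which differed by 0.25 (SE 0.12). Homologous recombination held 0 of 22, with a median of 0.050. RAD51B differed by 0.52 (SE 0.25) and NBN by 0.31 (SE 0.16), each with pool 3 below 0, and by 0.34 and 0.20 without pool 1.

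Cell cycle and p53 genes gave similar counts. G2/M and mitosis held 1 of 39: the cyclin-dependent kinase gene CDK1 stood at 3426, 6063, 3577, 3050 and 1575 with CDA_WT against 3087, 4143, 3491, 2718 and 1447, a difference of 0.20 (SE 0.11), or 0.12 without pool 2. The p53 target genes held 0 of 27, with a median of -0.037, and TP53I3 and PLK2 differed by 0.25 (SE 0.13) and 0.22 (SE 0.13), with pool 3 below 0 in both. TP53I3 stood at 0.16 without pool 5, and PLK2, whose pool 2 pair was 0.77, at 0.078 without pool 2. The BCL2 family held 1 of 15, BOK, at 0.09 (SE 0.09). Replication-dependent histones, whose transcripts mostly lack poly(A) tails and have near-identical copies, held 1 of 20, the linker histone gene H1-5 at 0.40 (SE 0.31). Their median was 0.23 with 16 of 20 means above 0, and without pool 2 it was 0.41 with 19 of 20. The list median within pool 2 was -0.32.

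The integrated stress and unfolded protein responses leaned the other way. This list held 3 of 33 genes of 1 sign, all lower with CDA_WT. SLC7A5, an amino acid transporter, stood at 7359, 11341, 13196, 12245 and 3014 with CDA_WT and at 7474, 17752, 15000, 14164 and 3299 with CDA_E67Q. XBP1, a transcription factor of the unfolded protein response, stood at 2373, 2294, 2362, 2294 and 2554 against 2560, 3538, 2458, 2439 and 2823. HERPUD1, which acts in degradation of proteins from the endoplasmic reticulum, stood at 1421, 1414, 1277, 1117 and 1322 against 1536, 1521, 1326, 1434 and 1455. The differences were -0.24 (SE 0.11), -0.20 (SE 0.12) and -0.15 (SE 0.10). In SLC7A5 and XBP1 the pair of pool 2 was the widest, and without it they differed by -0.14 and -0.10. HERPUD1 differed by -0.10 without pool 4. With the length and GC correction XBP1 alone of these genes kept 1 sign. Over the list 27 of 33 means were below 0 with a median of -0.15. The pool medians were -0.11, -0.59, 0.0089, -0.089 and -0.043, and without pool 2 the median was -0.066.

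The second endoplasmic reticulum stress element (ERSE-II), which reads ATTGG, any base, then CCACG, is bound by factors of this response. It was searched in the same way and was rare: of 27305 genes with a promoter sequence, 18 held it (0.0659%). So did 13 of 9157 tested genes (0.142%), 0 of 257 higher genes and 3 of 152 lower genes (1.97%). The motif search was not among the planned results. That share comes from 3 genes, and HERPUD1 among them was already lower in the list above, so nothing is read from it. Those 3 promoters are shown, from RefSeq on GRCh38.p14, read 5′ to 3′ along the gene with the element or its reverse complement in capitals. HERPUD1 lies at chr16:56932010-56932050 on the plus strand, HYOU1 at chr11:119057259-119057405 on the minus strand and NUCB1 at chr19:48900228-48900268 on the plus strand.
HERPUD1 promoter: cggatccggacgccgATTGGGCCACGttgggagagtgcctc
HYOU1 promoter: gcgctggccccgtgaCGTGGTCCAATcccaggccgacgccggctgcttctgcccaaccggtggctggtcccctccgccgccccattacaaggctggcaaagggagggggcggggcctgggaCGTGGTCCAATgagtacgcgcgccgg
NUCB1 promoter: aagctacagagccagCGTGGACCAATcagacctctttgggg
HYOU1 and NUCB1 are named for the element, after their values were seen. HYOU1, a chaperone of the endoplasmic reticulum, differed by -0.18 (SE 0.10), with pairs of pools 1 and 3 at -0.0076 and -0.012. NUCB1, a calcium-binding Golgi protein, differed by -0.22 (SE 0.11), or -0.13 without pool 2, with its pool 5 pair at -0.0027. With equal totals or the length and GC correction, NUCB1 alone of the 3 kept 1 sign, and HYOU1 lost it under upper-quartile scaling as well. The other 10 tested genes with the element did not have 1 sign, and their differences ran from -0.23 for GYS1 to 0.18 for ZNF143. Pool 2 gave -0.81 for GYS1, and pool 1 gave 0.46 for ZNF143. SDF2L1, also of this response, was among the 10 at -0.067, with pairs of 0.042, -0.71, 0.36, 0.067 and -0.096.

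**Figure D4:**
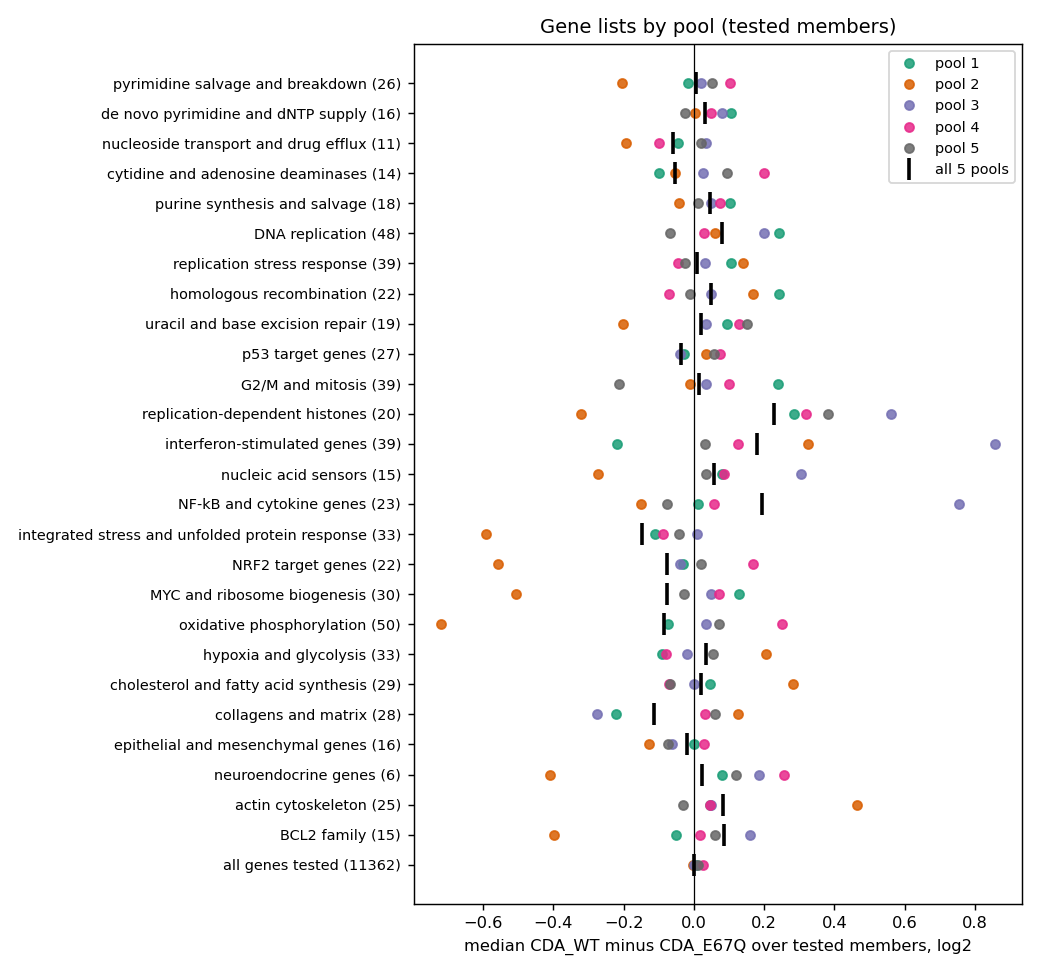
Median CDA_WT minus CDA_E67Q (log2) over the tested members of each gene list, for each pool (coloured points) and over all pools (black bars), with the number of tested genes in brackets. Pool 2 is the lowest point for oxidative phosphorylation at -0.72 and for the stress response list at -0.59, and pool 3 is the highest for interferon-stimulated genes at 0.86.

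Innate immune lists were high in pool 3. Interferon-stimulated genes had pool medians of -0.22, 0.32, 0.86, 0.13 and 0.031, and 1 of 39 had 1 sign, the transcription factor gene IRF1. It stood at 273, 489, 559, 250 and 1063 with CDA_WT and at 196, 315, 234, 248 and 1040 with CDA_E67Q, so the pairs of pools 4 and 5 hardly differed. Its difference was 0.48 (SE 0.20), or 0.29 without pool 3. NF-kB and cytokine genes had pool medians of 0.012, -0.15, 0.76, 0.057 and -0.078, and 1 of 23 had 1 sign, LIF, at 0.14 (SE 0.11). Nucleic acid sensors held 0 of 15. The RNA sensor gene DDX58 stood at 772 with CDA_WT and 157 with CDA_E67Q in pool 3, and its difference of 0.44 (SE 0.36) became -0.023 without pool 3. IRF3 differed by -0.30 with all pools and by -0.04 without pool 2.

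Metabolic lists followed pool 2. Oxidative phosphorylation genes held 0 of 50 of 1 sign. Their median was -0.085 with 7 of 50 means above 0, and without pool 2 it was 0.071 with 45 of 50 above 0. COX7A2, a subunit of cytochrome oxidase, differed by 0.20 (SE 0.11) and ATP5F1C, of ATP synthase, by -0.22 (SE 0.18), which became 0.0029 without pool 2. MYC and ribosome biogenesis genes held 0 of 30, with medians of -0.078 and, without pool 2, 0.048, and TFRC differed by -0.17 (SE 0.10). NRF2 target genes held 0 of 22, with medians of -0.077 and 0.0049, and OSGIN1 and SLC7A11 differed by -0.35 (SE 0.21) and -0.39 (SE 0.26), or -0.13 and -0.12 without pool 2.

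Hypoxia and glycolysis held 3 of 33 genes of 1 sign, in both directions. The glycolytic genes HK2 and PGK1 differed by -0.12 (SE 0.10), or -0.077 without pool 4, and -0.09 (SE 0.09), or -0.032 without pool 2, and PGAM1 was higher by 0.20 (SE 0.13), or 0.07 without pool 2. Cholesterol and fatty acid synthesis held 2 of 29, SQLE at 0.17 (SE 0.12) and the regulator SREBF1 at 0.29 (SE 0.15), or 0.085 and 0.12 without pool 2. Collagens and matrix held 1 of 28, LAMC1, a laminin chain, at -0.22 (SE 0.10). Epithelial and mesenchymal genes held 1 of 16, CDH3. Neuroendocrine genes held 1 of 6, the secretory granule gene CHGB, at 0.65 (SE 0.33), of which pool 1 gave 1.57, and at 0.42 without pool 1. Actin cytoskeleton genes held 1 of 25, CCN2, and their pool 2 median was 0.46 against -0.030 to 0.048 in the other pools.

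The genes of 1 sign were unevenly spread over chromosomes and base composition. Chromosome 19 held 6 of the higher and 36 of the lower genes among 867 tested (0.692% and 4.15%, beside 2.66% and 1.75% overall). Chromosome X, with 8 and 14 of 337 (2.37% and 4.15%), had the same lower share. Chromosome 14 held 22 and 3 of 378, chromosome 6 held 21 and 2 of 573, and chromosome 12 held 21 and 2 of 605. Chromosome 11 held 9 and 22 of 659, chromosome 1 held 41 and 11 of 1150, and chromosome 10 held 18 and 2 of 450. Chromosome 19 genes are rich in G and C, with a median transcript GC content of 59.2% beside 49.0% for all genes tested. Their median difference was -0.15 in pool 1 and -0.65 in pool 2, but 0.014, 0.090 and 0.066 in pools 3 to 5. The third of genes with the highest GC content held 59 higher and 82 lower genes (1.56% and 2.17%), and the third with the lowest held 117 and 55 (3.10% and 1.46%). After a correction for exonic length and GC content, added after the data were seen, chromosome 19 held 7 higher and 27 lower genes. Over all genes that correction gave 452 and 213. The quartiles of genes with the lowest and highest GC content had median differences of 0.13 and -0.17 in pool 1 and 0.22 and -0.24 in pool 2. In pools 3, 4 and 5 they had the opposite order, at -0.046 and 0.035, -0.018 and 0.076, and -0.056 and 0.066. The part of GC content in the result was not otherwise tested.

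Transcript length also moved with the differences, most in pool 2. The quartile of genes with the shortest exonic length, up to 2409 bases, had a median difference of -0.50 in pool 2, and the quartile with the longest, from 5701 bases, had 0.42. In pool 1 these medians were -0.075 and 0.093. In pools 3, 4 and 5 they had the opposite order, at 0.080 and -0.086, 0.19 and -0.15, and 0.073 and -0.056. A difference of over 1 log2 between the forms was found for 2376 genes (20.9%) in pool 2 and for 276 to 495 genes in the other pools. The pool 2 library of CDA_E67Q also had the highest summed normalised count, 28.4 M against 23.3 to 25.6 M in the other 14 libraries.

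With the length and GC correction 665 genes had 1 sign, 452 higher and 213 lower. The correction also moved the differences of all genes upward. Their median was 0.025 with 6437 of 11313 means above 0, beside -0.00056 and 5665 of 11362 without it. The balance of higher and lower genes is therefore not comparable before and after it. Of the 501 genes, 500 had a length and 305 of these kept 1 sign. Of the genes given in full, CREB3L3 stood at -2.18, AKNA at -1.02, KLHL24 at -0.69, CCN2 at 0.98, UNG at 0.28 and XBP1 at -0.16. Others moved further: BOK stood at 0.19, beside 0.09 without the correction, and TP53I3 at 0.35 beside 0.25. NT5M stood at -0.14 beside -0.27. Without the correction, NT5M was -0.18 without pool 2 and -0.42 without pool 3.

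**Figure D5:**
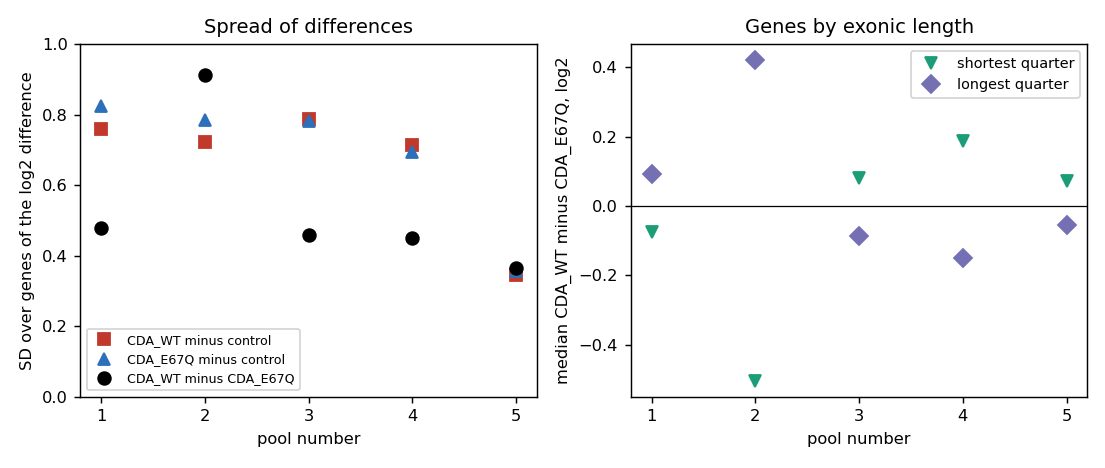
Left, SD over the genes tested of the log2 difference between libraries of the same pool, for CDA_WT minus control (red squares), CDA_E67Q minus control (blue triangles) and CDA_WT minus CDA_E67Q (black circles). Right, median CDA_WT minus CDA_E67Q of the shortest (green) and longest (purple) quartile of genes by exonic length; in pool 2 the SD is 0.91 and the medians are -0.50 and 0.42.

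The distance between the forms, set beside the distance of each from the control, differed by pool. In pools 1, 3 and 4 the SD over genes was 0.45 to 0.48 between the forms and 0.69 to 0.83 between either form and the control. In pool 2 it was 0.91 between the forms, against 0.72 for CDA_WT minus control and 0.78 for CDA_E67Q minus control. In pool 5 the 3 values were 0.36, 0.35 and 0.36. The 2 comparisons with the control share the control library, so they are given side by side and not compared by a test.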

How the data were processed

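The authors deposited 2 tables of 16887 genes on a log2 scale, 1 for CDA_WT and 1 for CDA_E67Q, each with the control libraries as well. The tools were Salmon, Trimmomatic, FastQC and bcl2fastq, with GRCh38, per the submitters' processing notes. Versions, use of strand and the step that follows Salmon are not given in the sources used here. Overlapping and antisense genes are uncertain for that reason. The values have the form of variance-stabilised counts, and genes with no read share a floor, 6.65 in 1 table and 6.17 in the other. Normalised counts were recovered from them: with V and F for 2 raised to the value and to the floor, the count is the square of V minus F, divided by V.

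The tables were matched per gene through the 5 control columns that both hold (largest residual 3.96e-08 log2), which 13917 genes with a control read allow. The gene factor exceeded 0.1 log2 for 2136 genes and 1 log2 for 63. Libraries were scaled by the median of ratios. Genes with at least 10 in at least 5 of the 10 libraries were tested with limma 3.58.1 (R 4.3.3, mean-variance trend, pool number as a block) on log2 of the normalised count plus 1, with a 2-sided Benjamini-Hochberg threshold of 0.05. The count test foreseen for whole counts was not used, because the values are not counts. The fit was tested on simulated data. Python 3.11.15, numpy 2.4.6, pandas 2.3.3, scipy 1.17.1 and matplotlib 3.10.9 were used for the rest. Estimated depth was 21.4 to 31.0 M reads per library.

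The pool numbers pair the libraries: the correlation over genes of deviations from the group mean was 0.69, 0.33, 0.66, 0.64 and 0.89 for same-numbered libraries, and -0.47 to 0.28 for others. The members and the 27 lists were chosen with earlier results of these data known. The rule named CDA, every gene past the threshold (up to 30), and, among genes of 1 sign with a mean of at least 50, the 12 widest and the 6 steadiest in each direction. It also named the 6 such genes per direction with CDA_WT highest or lowest of every pool, and up to 6 members of 1 sign per list, or else the 2 with the smallest p. Alternatives were other scalings, pseudocounts of 0.5 and 10, other filters, fits without the block or with all 15 libraries, the deposited values, each pool left out, and a length and GC correction. Gene positions came from GENCODE on GRCh38.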

Additional observations from a re-analysis of the deposited data

Results flagged for a closer look

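Of 111 sets of 5 values checked for a single value far from the others, 29 held one, and 23 of the 29 were in pool 2. Chance gives about 1 in 20 in independent sets, but these share their libraries and many are genes chosen for their differences, so that rate does not apply to them and the count is a description. The SD over genes of CDA_WT minus CDA_E67Q was itself such a case, at 0.91 in pool 2. Among genes higher with CDA_WT, the pool 2 pair stood apart for MAGED4B at 6.18, MOCS1 at 2.24, INHBB at 1.08, XPNPEP3 at 0.98, SREBF1 at 0.95, PGAM1 at 0.75, CDK1 at 0.55 and MBD4 at 0.39. Among genes lower with CDA_WT, it stood apart for GJB2 at -3.11, CPLX1 at -2.67, SERPINA3 at -2.62, ANK2 at -2.54, BHLHE41 at -2.06, XBP1 at -0.62 and PGK1 at -0.34. Of genes without 1 sign, IRF3 at -1.33 and ATP5F1C at -1.12 did so as well.

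List medians stood apart in pool 2 for the integrated stress and unfolded protein response at -0.59, NRF2 target genes at -0.56, MYC and ribosome biogenesis at -0.51, neuroendocrine genes at -0.41 and actin cytoskeleton at 0.46. In other pools the single far value was that of DDX58 at 2.29 and the NF-kB and cytokine median at 0.76, both in pool 3, SCAND2P at 1.35 in pool 5, HERPUD1 at -0.36 in pool 4 and CHGB at 1.57 in pool 1. The CDA level of 5421 in the pool 3 library of CDA_E67Q stood apart from the other 4 libraries of its group.

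A further 8 genes had no read in any control library and over 20 normalised counts in at least 1 library with CDA_WT or CDA_E67Q, on the scale of its own table, so the forms cannot be set against each other. In pool 3, and with both forms, PCDH11X reached 92.0 with CDA_WT, PRR16 64.1 with CDA_E67Q, TENM1 38.2 with CDA_E67Q, and the class II histocompatibility genes HLA-DQA1 and HLA-DPB1 48.9 and 32.6 with CDA_WT. EVI2A reached 70.8 with CDA_E67Q in pool 2, PTPRD 20.02 with CDA_E67Q in pool 4, and TRIM39-RPP21, a readthrough gene, 24.3 with CDA_WT in pool 4.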

How the results depend on the processing

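No gene passed the adjusted threshold under any of the 16 alternatives. With pool number as a replicate block 180 of 11362 genes (1.58%) had an unadjusted p under 0.05, and without the replicate block 19 did. With no low-value filter, which adds genes, 288 did, and with the length and GC correction 283 of 11313. The count of genes of 1 sign ran from 428 to 665 over settings with 5 pairs. With 4 pairs, where fewer pairs must share a sign and random signs agree more often, it ran from 991 to 1486 of 11362. The most were found without pool 2, where 557 genes had an unadjusted p under 0.05 and the smallest adjusted p was 0.485. With no difference between the forms, a share of about 0.05 of genes would have such a p. These counts therefore do not by themselves show a difference. Of the 501 genes, 454 kept 1 sign under upper-quartile scaling, 449 on the deposited values, 310 with equal totals and 305 of 500 with the length and GC correction. The named genes kept the direction of their mean difference in 1419 of 1421 comparisons. DDX58 reversed to -0.023 without replicate 3 (range over pools left out -0.023 to 0.64), and ATP5F1C to 0.0029 without replicate 2 (range -0.30 to 0.0029). Depth, known only as an estimate, limits what low genes such as CREB3L3, CDS1 and CDH3 can show.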
